A study of Homo sapiens with 12 samples.

Results

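XBP1 and 9 genes for chaperones, folding enzymes and a degradation factor of the endoplasmic reticulum (HSPA5, HSP90B1, CALR, CANX, PDIA3, PDIA4, PDIA6, DNAJB9 and HERPUD1) were followed through 4 treatments of CAMA-1 cells. The genes were chosen by symbol, and all 10 had a row of their own among the 60612 named rows of the count table and were among the 11803 genes with enough counts to be tested. CAMA-1 is an established human breast cancer line that expresses the oestrogen receptor (ER). Wild-type cells received DMSO as vehicle, 100 nM abemaciclib (an inhibitor of CDK4 and CDK6), 5 nM fulvestrant (which binds ER and leads to its degradation), or the 2 drugs in combination, for which no doses are repeated in the labels. Treatment lasted 5 days. Each group held 3 libraries, which the design text calls biological replicates, made from 3′ ends of polyadenylated RNA. All groups are 1 cell line in culture. The values are therefore those of a single genetic background without stromal or immune cells.

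The endoplasmic reticulum is where secreted and membrane proteins are translocated, glycosylated, folded and checked. When unfolded proteins build up there, the sensors IRE1 (gene ERN1), PERK (EIF2AK3) and ATF6 start the unfolded protein response, in which IRE1 splices XBP1 mRNA so that it encodes an active transcription factor, PERK favours translation of ATF4, and cleaved ATF6 enters the nucleus. Together these factors raise chaperones, folding enzymes and components of ER-associated degradation. In that name alone ER stands for endoplasmic reticulum, and elsewhere it is the oestrogen receptor. In breast epithelium XBP1 is also known as an oestrogen-responsive gene that is expressed highly in luminal cells. Gene counts do not separate spliced from unspliced XBP1 mRNA, so the values below are total XBP1 transcript.

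A regulatory sequence that many of these genes are known to share is the endoplasmic reticulum stress element (ERSE), which in its classical form is CCAAT and CCACG with 9 bases between them. RefSeq promoter windows, each holding 250 bases before and 50 bases from a start site (GRCh38.p14), were searched on both strands. For 9 members 15 windows were found, and 6 members held an exact ERSE in at least 1 window (XBP1, HSPA5, HSP90B1, CALR, CANX and PDIA6). PDIA6 held it only in its second window. Of all 35116 windows, 27 (0.0769%) held an ERSE. That is a share of windows rather than genes, and it includes the windows of the members. HERPUD1 held the related ERSE-II, which is ATTGG and CCACG with 1 base between and which 0.0541% of all windows hold. The parts of ERSE recur in ERSE-II, since ATTGG is CCAAT read on the opposite strand. No window of PDIA4 or DNAJB9 held either element as spelled here. A further 4 letter strings were searched, of which the first and second share their opening TGACGT. These were TGACGTGG, the core of the unfolded protein response element (0.729% of all windows), TGACGTCA, the cyclic AMP response element (1.85%), TGATGNAA, an ATF4 composite site (3.62%), and the palindromic oestrogen response element, GGTCA and TGACC with 3 bases between (0.057%). Of these 4, only TGATGNAA matched in a member, once in HERPUD1. The stretches upstream of XBP1, HSPA5 and PDIA4, which had their highest level with abemaciclib, and of HERPUD1 and DNAJB9, which rose with every treatment, are shown because both kinds of pattern occurred with and without either element. They run 5′ to 3′ on the strand of the gene and end just before its annotated start, with both parts of the element in capitals where there is one. A match describes letters in the window and no binding was measured.
XBP1, chr22:28800598-28800767, minus strand: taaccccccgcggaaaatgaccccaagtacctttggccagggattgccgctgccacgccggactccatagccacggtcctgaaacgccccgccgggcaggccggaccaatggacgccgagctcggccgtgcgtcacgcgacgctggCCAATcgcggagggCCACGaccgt
HSPA5, chr9:125241383-125241552, minus strand: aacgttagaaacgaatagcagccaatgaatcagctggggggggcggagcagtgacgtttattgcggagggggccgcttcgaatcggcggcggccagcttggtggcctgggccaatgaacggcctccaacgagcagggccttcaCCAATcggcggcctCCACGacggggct
PDIA4, chr7:149028663-149028740, minus strand: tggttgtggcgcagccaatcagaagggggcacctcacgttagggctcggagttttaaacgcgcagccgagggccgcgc
HERPUD1, chr16:56931972-56932141, plus strand: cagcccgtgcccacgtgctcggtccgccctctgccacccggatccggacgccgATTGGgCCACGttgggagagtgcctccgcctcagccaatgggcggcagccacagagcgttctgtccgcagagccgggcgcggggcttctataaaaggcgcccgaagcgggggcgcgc
DNAJB9, chr7:108569697-108569866, plus strand: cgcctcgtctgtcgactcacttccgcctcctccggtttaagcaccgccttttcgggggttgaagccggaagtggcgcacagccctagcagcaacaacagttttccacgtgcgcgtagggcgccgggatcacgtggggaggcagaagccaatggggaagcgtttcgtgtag
The ERSE of XBP1 began at -52 and that of HSPA5 at -66 relative to the RefSeq start site, and the ERSE-II of HERPUD1 began at -117.

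Total counts ran from 3299119 to 5164667 per library, and levels are given in CPM, the count normalised to library size after TMM scaling. The 10 genes took 0.433 to 0.453% of all counts in DMSO, 0.466 to 0.493% with abemaciclib, 0.382 to 0.412% with fulvestrant and 0.388 to 0.401% with the combination. The treatments showed in their known readouts. MKI67, a proliferation marker, fell from 511 ± 52.4 CPM (mean ± SD, n = 3) to 54.2 ± 4.74 CPM, 43.7 ± 2.29 CPM and 2.21 ± 0.404 CPM with abemaciclib, fulvestrant and both. TFF1, a classical ER target, moved from 60.5 ± 2.87 CPM to 382 ± 13.9 CPM with abemaciclib and 1.46 ± 0.686 CPM with fulvestrant, and GREB1, another, from 81.1 ± 4.43 CPM to 127 ± 4.57 CPM and 4.62 ± 0.775 CPM. All 7 luminal markers were present in every library, at 76.3 CPM or more, and 10 of 11 markers of immune, stromal, endothelial and basal cells stayed under 1 CPM in every library, 6 of them at 0. The exception was COL1A1, at 14.2 to 25.9 CPM, which made up most of the summed level of the 11 (14.8 to 18.8 CPM in DMSO, 20 to 26.5 with abemaciclib, 20.7 to 27.1 with fulvestrant and 16.5 to 22.6 with the combination). Mitochondrial transcripts took 12 to 12.5% of counts in DMSO and 15.6 to 20.6% in the treated libraries, and their part in the results was not tested. Without fulvestrant replicate 3, 588 of 12069 genes passed between the combination and fulvestrant (edgeR, adjusted p under 0.05). Without fulvestrant replicate 1 there were 156 of 12067, and without replicate 2 there were 180 of 12072. Calls on the 10 genes that change without fulvestrant replicate 3 are given both ways.

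Across the 3 comparisons with DMSO the 10 genes split into groups rather than moving as 1 set. Against DMSO, abemaciclib raised 5 of the 10 and lowered none (adjusted p under 0.05 in the quasi-likelihood test of edgeR), where 41.2% of all genes tested passed in either direction, and the median log2 fold change was 0.24 against 0.00 for all genes. The 5 were XBP1, HSPA5, PDIA4, DNAJB9 and HERPUD1. A count of 5 of 10 passing in either direction is near that background, while 5 higher of 10 compares with 20.5% of all genes higher. Bulk RNA does not tell a higher level in each cell from a larger share of expressing cells. Fulvestrant changed 6 of the 10 (51% of all genes), with DNAJB9 and HERPUD1 higher and HSP90B1, CANX, PDIA3 and PDIA6 lower, and a median of -0.11. The combination also changed 6 (55.2% of all genes), with DNAJB9 and HERPUD1 higher and HSP90B1, CALR, CANX and PDIA6 lower, and a median of -0.13. These comparisons share the DMSO libraries. Changes were mostly small, since only 2, 2 and 3 members in turn passed with at least a 1.5-fold change, against 23.5%, 33.3% and 36.7% of all genes.

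**Figure D1:**
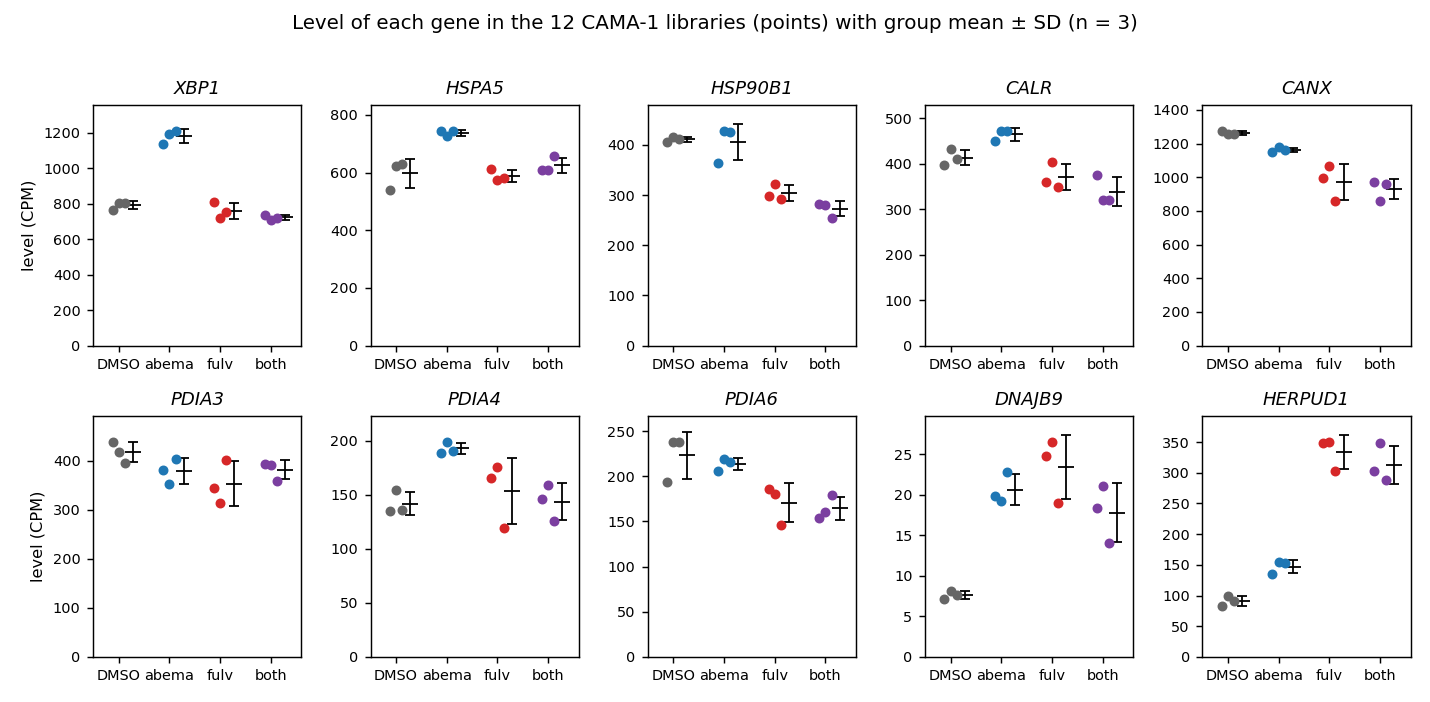
Level of each of the 10 genes in CPM (vertical axes, each starting at 0) in DMSO, abemaciclib (abema), fulvestrant (fulv) and the combination (both); points are single libraries and the bars beside them are the group mean ± SD (n = 3). XBP1, HSPA5 and PDIA4 stand highest with abemaciclib, DNAJB9 and HERPUD1 stand above DMSO in every treated library, and HSP90B1 and CANX stand lowest in the groups given fulvestrant.

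XBP1, the transcription factor of the set (chr22:28794555-28800597 on GRCh38, minus strand), was measured at 767, 804 and 806 CPM in the DMSO libraries, 1135, 1190.2 and 1212 CPM with abemaciclib, 808, 719 and 755 CPM with fulvestrant and 738, 709.6 and 720.2 CPM with the combination. Every abemaciclib library lay above every other library, and the remaining 9 libraries spanned a narrow band in which the combination sat just below DMSO. XBP1 rose 1.49-fold with abemaciclib, or 0.57 ± 0.07 on the log2 scale (± SE, here and for each log2 fold change below; adjusted p = 1.59e-07). With fulvestrant alone the log2 fold change was -0.06 ± 0.07 (adjusted p = 0.498, 95% interval -0.20 to 0.08), and with the combination -0.13 ± 0.07 (adjusted p = 0.105). The latter passed the threshold when DESeq2 was used instead (-0.15, adjusted p = 0.0449). Measured against abemaciclib alone, XBP1 was at -0.71 ± 0.07 (adjusted p = 5.34e-09) in the combination and at -0.63 ± 0.07 (adjusted p = 5.95e-08) with fulvestrant. In order of level the groups ran abemaciclib, DMSO, fulvestrant and combination, and no neighbours among the last 3 of these differed beyond their spread in the edgeR fit.

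HSPA5, also called BiP, is the HSP70 chaperone of the endoplasmic reticulum and keeps the stress sensors inactive when bound to them (chr9:125234853-125241382, minus strand). It was measured at 539.6, 623 and 629 CPM in the DMSO libraries, 746, 726 and 744 CPM with abemaciclib, 613, 574 and 582 CPM with fulvestrant and 609, 609 and 657 CPM with the combination. The abemaciclib libraries were again above all others, with a gap to the highest combination library, while DMSO, fulvestrant and combination overlapped. HSPA5 rose 1.24-fold with abemaciclib (0.31 ± 0.07, adjusted p = 0.00143). Against DMSO the log2 fold change was -0.02 ± 0.07 with fulvestrant and 0.06 ± 0.07 with the combination (adjusted p = 0.845 and 0.474). The combination lay below abemaciclib, with a log2 fold change of -0.24 ± 0.07 (adjusted p = 0.0117). That call was lost without TMM scaling (-0.19, adjusted p = 0.0596) and without combination replicate 1 (-0.22, adjusted p = 0.0503) or 2 (-0.22, adjusted p = 0.0579).

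HSP90B1, also called GRP94, is the HSP90 chaperone of the same compartment (chr12:103930107-103953931, plus strand). Its levels were 405, 415 and 412 CPM in the DMSO libraries, 364, 428 and 425 CPM with abemaciclib, 298, 322 and 292 CPM with fulvestrant and 283, 281 and 255 CPM with the combination. It did not follow HSPA5: abemaciclib libraries overlapped DMSO, and all 6 libraries that had received fulvestrant lay below the other 6. The log2 fold change was -0.02 ± 0.08 with abemaciclib (adjusted p = 0.878), -0.43 ± 0.08 (adjusted p = 3.83e-05) with fulvestrant and -0.59 ± 0.08 (adjusted p = 3.45e-07) with the combination, which put the combination at 0.664 of the DMSO level. Against abemaciclib the combination gave -0.57 ± 0.08 (adjusted p = 1.56e-06). The 3′ end of HSP90B1 lies within UQCC6 on the opposite strand. The sources used here do not give the strand setting of the counting, so whether UQCC6 affected the counts of HSP90B1 is not known.

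CALR and CANX encode the lectin chaperones calreticulin and calnexin, which hold newly made glycoproteins while they fold. CALR (chr19:12938578-12944489, plus strand) was measured at 398, 433 and 410.3 CPM in the DMSO libraries, 449, 473 and 472 CPM with abemaciclib, 360.2, 404 and 349 CPM with fulvestrant and 375, 321 and 320.0 CPM with the combination. Its 3 abemaciclib libraries were above all 9 others, and its 3 combination libraries were below all DMSO libraries. With abemaciclib the log2 fold change was 0.17 ± 0.08 (adjusted p = 0.0917), short of the threshold, and it passed when only those groups were fitted (0.17, adjusted p = 0.0275) or when fulvestrant replicate 3 was left out (0.17, adjusted p = 0.0448). With fulvestrant it was -0.16 ± 0.08 (adjusted p = 0.0981), which passed without TMM scaling (-0.22, adjusted p = 0.0172) and without fulvestrant replicate 2 (-0.22, adjusted p = 0.0266). CALR was lower with the combination, at -0.29 ± 0.08 (adjusted p = 0.00286) against DMSO and -0.46 ± 0.08 (adjusted p = 4.67e-05) against abemaciclib. CALR overlaps a long non-coding RNA gene on the opposite strand.

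CANX (chr5:179678628-179731641, plus strand) was measured at 1277, 1258 and 1256 CPM in the DMSO libraries, 1148, 1177 and 1160.0 CPM with abemaciclib, 993, 1067 and 859 CPM with fulvestrant and 969.8, 859.7 and 962 CPM with the combination. Here DMSO was highest, the abemaciclib libraries were all lower than the DMSO libraries, and those with fulvestrant or both drugs were lower still and overlapped each other. CANX fell with fulvestrant (-0.38 ± 0.08, adjusted p = 0.000169) and with the combination (-0.44 ± 0.08, adjusted p = 2.05e-05). With abemaciclib the log2 fold change was -0.12 ± 0.08 (adjusted p = 0.211), and it passed only without TMM scaling (-0.18, adjusted p = 0.0446). Fulvestrant replicate 3 was the lowest of all 12 libraries for CANX, and without it the change with fulvestrant was -0.30 (adjusted p = 0.000394).

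The protein disulphide isomerases PDIA3, PDIA4 and PDIA6 form and rearrange disulphide bonds, PDIA3 (also called ERp57) on glycoproteins held by calnexin and calreticulin. They did not move together. PDIA4 (chr7:149003062-149028662, minus strand) was measured at 135, 154 and 136 CPM in the DMSO libraries, 189, 199 and 191 CPM with abemaciclib, 166, 176 and 119 CPM with fulvestrant and 146, 159 and 126 CPM with the combination. It resembled XBP1 in that abemaciclib libraries were above all others, whereas the fulvestrant libraries were widely spread, with replicate 3 the lowest of all 12. PDIA4 rose 1.36-fold with abemaciclib (0.44 ± 0.12, adjusted p = 0.0046). The change with fulvestrant was 0.11 ± 0.12 (adjusted p = 0.461), and it became a rise without fulvestrant replicate 3 (0.26, adjusted p = 0.0134). The combination against DMSO gave a log2 fold change of 0.02 ± 0.12 and a 95% interval of -0.23 to 0.26, and against abemaciclib it gave -0.43 ± 0.12 (adjusted p = 0.00716).

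PDIA6 (chr2:10783391-10837977, minus strand) was measured at 193, 238 and 238 CPM in the DMSO libraries, 206, 219 and 216 CPM with abemaciclib, 186, 180.2 and 146 CPM with fulvestrant and 154, 160.0 and 179 CPM with the combination. Its abemaciclib libraries fell within the range of DMSO, and the 6 libraries with fulvestrant lay below every DMSO and abemaciclib library. PDIA6 fell with fulvestrant (-0.39 ± 0.10, adjusted p = 0.00118) and with the combination (-0.44 ± 0.09, adjusted p = 0.00028), and was -0.07 ± 0.09 with abemaciclib (adjusted p = 0.607). Without fulvestrant replicate 3, the lowest library, the change with fulvestrant was -0.29 (adjusted p = 0.00554). Its 3′ end overlaps ATP6V1C2 on the opposite strand, which had 27 counts in all 12 libraries together.

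PDIA3 (chr15:43746394-43773279, plus strand) was measured at 439, 419 and 396 CPM in the DMSO libraries, 381, 352 and 404 CPM with abemaciclib, 345, 313 and 403 CPM with fulvestrant and 394, 392 and 359 CPM with the combination. Fulvestrant replicate 3, at 403 CPM, was within the DMSO range and above the other 2 libraries of its group, so the groups overlapped. The fall with fulvestrant passed narrowly (-0.24 ± 0.09, adjusted p = 0.0207). It was larger without replicate 3 (-0.34, adjusted p = 0.00029) and missed the threshold without fulvestrant replicate 1 (-0.21, adjusted p = 0.0816) or 2 (-0.16, adjusted p = 0.129), without DMSO replicate 1 (-0.20, adjusted p = 0.0794) or 2 (-0.23, adjusted p = 0.0592), and with only those groups fitted (-0.23, adjusted p = 0.0731). The change was -0.14 ± 0.08 with abemaciclib and -0.13 ± 0.08 with the combination (adjusted p = 0.19 and 0.198). Its 3′ end overlaps ELL3 on the opposite strand (3 counts in all libraries), and its processed copy PDIA3P1 had 120 counts against 20360 for PDIA3.

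DNAJB9, also called ERdj4, is an HSP40 co-chaperone of HSPA5 that takes part in repressing IRE1 and in degradation of misfolded proteins (chr7:108569867-108574850, plus strand). It was measured at 7.12, 8.17 and 7.65 CPM in the DMSO libraries, 19.8, 19.2 and 22.7 CPM with abemaciclib, 24.7, 26.5 and 18.9 CPM with fulvestrant and 18.3, 21.1 and 14 CPM with the combination, which corresponds to 24 to 102 counts per library and is the shallowest evidence in the set. All 9 treated libraries were nonetheless above all 3 DMSO libraries, and the treated groups overlapped each other. DNAJB9 rose 2.66-fold with abemaciclib (1.41 ± 0.19, adjusted p = 1.34e-06), 3.01-fold with fulvestrant (1.59 ± 0.19, adjusted p = 9.23e-08) and 2.3-fold with the combination (1.20 ± 0.20, adjusted p = 8.97e-06). The log2 fold change of fulvestrant against abemaciclib was 0.18 ± 0.17 (95% interval -0.16 to 0.52), and the order fulvestrant, abemaciclib, combination was not resolved.

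HERPUD1, a membrane protein of ER-associated degradation, which returns misfolded proteins to the cytosol for the proteasome (chr16:56932142-56944864, plus strand), had the largest difference from DMSO of the 10 genes in both groups given fulvestrant. It was measured at 82.5, 99.4 and 90.5 CPM in the DMSO libraries, 135, 155 and 152 CPM with abemaciclib, 349, 351 and 302 CPM with fulvestrant and 303, 348 and 288 CPM with the combination. The groups formed steps with no overlap from DMSO to abemaciclib and from abemaciclib to the fulvestrant libraries, while fulvestrant and combination overlapped. HERPUD1 rose 1.61-fold with abemaciclib (0.69 ± 0.10, adjusted p = 1.42e-06), 3.66-fold with fulvestrant (1.87 ± 0.09, adjusted p = 2.61e-15) and 3.43-fold with the combination (1.78 ± 0.09, adjusted p = 4.02e-15). Its fold change with fulvestrant was above that of 98.4% of all genes tested.

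**Figure D2:**
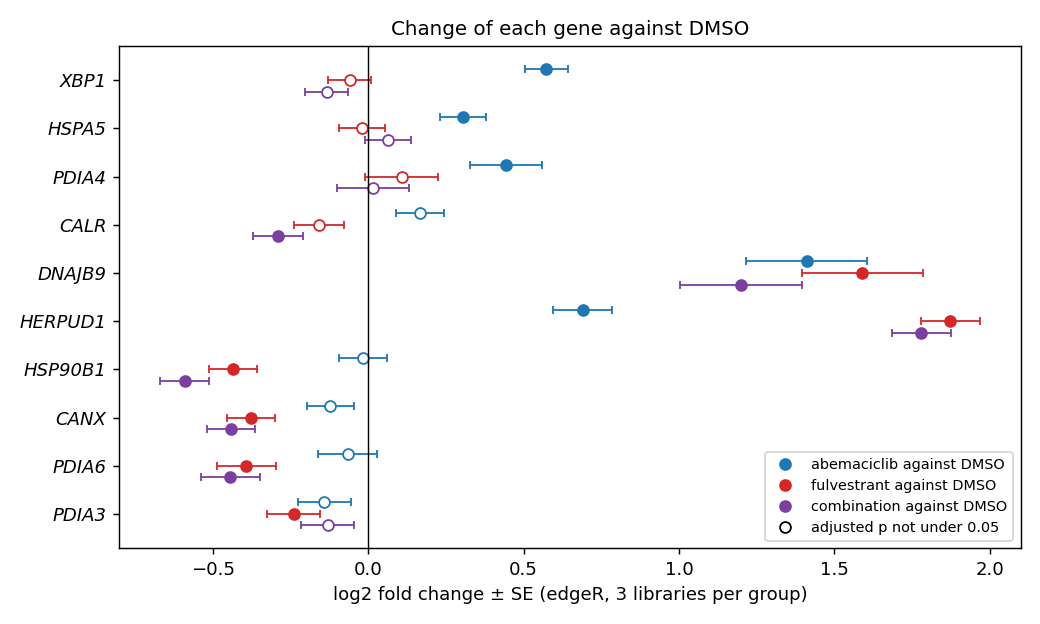
Log2 fold change against DMSO (horizontal axis) of the 10 genes, with bars of ± 1 SE from the edgeR fit; filled points passed an adjusted p of 0.05. XBP1, HSPA5 and PDIA4 rose with abemaciclib alone, DNAJB9 and HERPUD1 rose with every treatment, and HSP90B1, CANX and PDIA6 fell in both groups given fulvestrant.

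The next question was what fulvestrant changed in cells that were also given abemaciclib. Against abemaciclib alone, the combination differed in 8 of the 10 genes (33.5% of all genes passed). HERPUD1 was higher, and XBP1, HSPA5, HSP90B1, CALR, CANX, PDIA4 and PDIA6 were lower. The median log2 fold change was -0.35 against 0.01 for all genes, and 7 lower of 10 compares with 17.7% of all genes lower. With at least a 1.5-fold change only 2 of the 10 passed, HERPUD1 higher and XBP1 lower, against 17.9% of all genes. The log2 fold change was 1.09 ± 0.09 (adjusted p = 2.47e-10) for HERPUD1, -0.32 ± 0.08 (adjusted p = 0.00179) for CANX and -0.38 ± 0.09 (adjusted p = 0.00285) for PDIA6. PDIA3 and DNAJB9 did not pass, at 0.01 ± 0.08 and -0.21 ± 0.17 (adjusted p = 0.939 and 0.36).

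Fulvestrant and abemaciclib were also compared directly, a comparison added after the values were seen, so that neighbouring levels could be tested. Here 8 of the 10 passed (29% of all genes did), with HERPUD1 higher and 7 genes lower. With at least a 1.5-fold change only 2 of the 10 passed, again HERPUD1 and XBP1, against 15% of all genes. The log2 fold change was 1.18 ± 0.09 (adjusted p = 9.27e-11) for HERPUD1, -0.32 ± 0.07 (adjusted p = 0.00121) for HSPA5, -0.42 ± 0.08 (adjusted p = 0.00016) for HSP90B1 and -0.32 ± 0.08 (adjusted p = 0.00246) for CALR. This comparison and the one before it share the abemaciclib libraries. Without fulvestrant replicate 3 the differences in CANX (-0.17, adjusted p = 0.0529), PDIA4 (-0.18, adjusted p = 0.141) and PDIA6 (-0.22, adjusted p = 0.0534) missed the threshold and that in PDIA3 passed it (-0.20, adjusted p = 0.0473). For PDIA4, -0.33 ± 0.12 (adjusted p = 0.036) with all libraries, the call was also lost without any 1 abemaciclib library (adjusted p = 0.0702 to 0.106), without combination replicate 1 (-0.33, adjusted p = 0.0531) and with only the groups compared (-0.33, adjusted p = 0.0561).

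Adding abemaciclib to fulvestrant changed none of the 10 genes by edgeR, and none by DESeq2, where 1.92% of all genes passed. That background rests on single libraries, with 227 of 11803 genes passing in all libraries, 588 of 12069 without fulvestrant replicate 3, 146 of 12003 without combination replicate 3 and 125 of 11132 with only the groups compared. None of the 10 genes passed in any of these fits. At an unadjusted p under 0.05 there was 1, DNAJB9, at -0.39 ± 0.17 (adjusted p = 0.35). For HSP90B1 all combination libraries were below all fulvestrant libraries (-0.16 ± 0.08, adjusted p = 0.45), and in the other members the groups overlapped. The 95% interval of the log2 fold change was -0.22 to 0.07 for XBP1, -0.07 to 0.23 for HSPA5 and -0.27 to 0.09 for HERPUD1. For XBP1 this interval lies wholly below the one for abemaciclib in the absence of fulvestrant, 0.43 to 0.72.

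The difference between those effects was tested as the interaction, that is, the log2 fold change of the combination against fulvestrant less that of abemaciclib against DMSO. It passed in 4 of the 10 genes (21.1% of all genes, or 2493, and 3318 of 12069 without fulvestrant replicate 3), each negative, with a median of -0.26 over the 10 against -0.01 over all genes. XBP1 had an interaction of -0.65 ± 0.10 (adjusted p = 2.29e-05), beside its rise of 0.57 with abemaciclib. DNAJB9 had -1.80 ± 0.26 (adjusted p = 1.09e-05), within the lowest 1.62% of the genes tested, and HERPUD1 had -0.78 ± 0.13 (adjusted p = 6.93e-05). DNAJB9 and HERPUD1 thus rose with either drug, and the combination did not pass against fulvestrant for either gene. PDIA4 had -0.53 ± 0.16 (adjusted p = 0.0252), a call that was lost without TMM scaling (-0.42, adjusted p = 0.0526) and when 1 of 6 libraries was left out: abemaciclib replicate 2 (-0.51, adjusted p = 0.0595), combination replicate 3 (-0.46, adjusted p = 0.0563), DMSO replicate 1 (-0.51, adjusted p = 0.0584) or 3 (-0.52, adjusted p = 0.0541), or fulvestrant replicate 1 (-0.48, adjusted p = 0.0628) or 2 (-0.43, adjusted p = 0.0591).

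Among the members that did not pass, the interaction was -0.22 ± 0.10 (adjusted p = 0.132) for HSPA5 and -0.30 ± 0.11 (adjusted p = 0.0565) for CALR, which passed without fulvestrant replicate 3 (-0.34, adjusted p = 0.0114), without combination replicate 1 (-0.38, adjusted p = 0.018) or with upper-quartile factors (-0.31, adjusted p = 0.0426). HSP90B1, CANX and PDIA6, which were lower both with fulvestrant and with the combination, had interactions of -0.14 ± 0.11, 0.06 ± 0.11 and 0.01 ± 0.13 (adjusted p = 0.402, 0.75 and 0.957). PDIA3, lower with fulvestrant but not passing with the combination, had the only positive value of over 0.1, 0.25 ± 0.12 (adjusted p = 0.145), which passed without fulvestrant replicate 3 (0.35, adjusted p = 0.00891) and without TMM scaling (0.36, adjusted p = 0.0456).

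**Figure D3:**
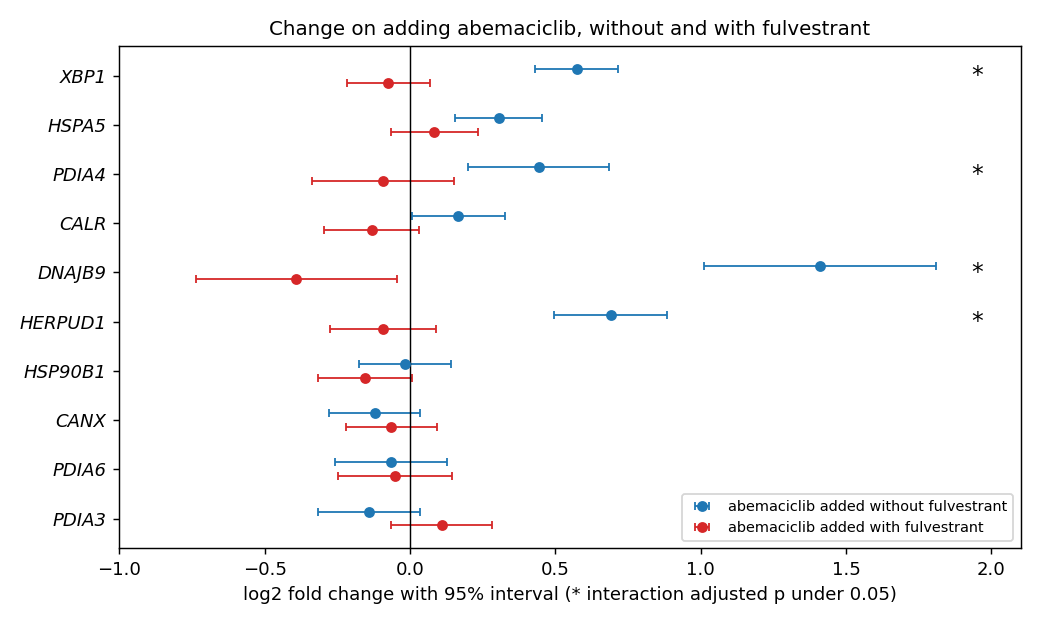
Log2 fold change on adding abemaciclib (horizontal axis) to cells without fulvestrant (abemaciclib against DMSO) and with it (combination against fulvestrant), with 95% intervals from the edgeR fit; a star marks genes whose interaction passed an adjusted p of 0.05. XBP1, PDIA4, DNAJB9 and HERPUD1 are positive without fulvestrant, and at or below 0 with it, where no gene passed.

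The sensors and effectors upstream of these genes were described from a list of 18, all of them tested. Abemaciclib raised 8 and lowered 2 of the list, fulvestrant raised 8 and lowered 2, and the combination raised 10 and lowered 3, with medians of 0.22, 0.28 and 0.53. In turn 55.6%, 55.6% and 72.2% of the list passed, against 41.2%, 51% and 55.2% of all genes, so the share with fulvestrant was near that background. Of the 3 sensors, only EIF2AK3 passed, in 1 of these comparisons. ERN1, which encodes IRE1, was low, at 4.38 ± 0.903 CPM in DMSO (mean ± SD, n = 3) and 6.37 ± 1.21 CPM with the combination, and did not pass against DMSO with abemaciclib (0.38), fulvestrant (0.38) or the combination (0.55, adjusted p = 0.0945). ATF6 was at 69.7 ± 1.63 CPM in DMSO, with log2 fold changes of 0.21, 0.18 and 0.18, none of which passed (adjusted p = 0.0767, 0.118 and 0.104). EIF2AK3, which encodes PERK, passed only with the combination (0.62 ± 0.23, adjusted p = 0.0243), from 8.04 ± 1.93 CPM to 12.6 ± 0.931 CPM.

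ATF4, the factor translated when PERK or related kinases are active, was measured at 543, 543 and 557 CPM in the DMSO libraries, 444, 381 and 406 CPM with abemaciclib, 409, 329.7 and 477 CPM with fulvestrant and 369, 436 and 445 CPM with the combination. All 9 treated libraries were below the DMSO libraries. ATF4 transcript fell with abemaciclib (-0.42 ± 0.10, adjusted p = 0.00287), with fulvestrant (-0.43 ± 0.10, adjusted p = 0.00147) and with the combination (-0.39 ± 0.10, adjusted p = 0.00288). DDIT3, which encodes the pro-apoptotic factor CHOP, stood at 5.42 ± 0.628 CPM in DMSO and 3.74 ± 0.483 CPM with abemaciclib and did not pass in any of the 3 comparisons (adjusted p = 0.173, 0.662 and 0.953). In these libraries, therefore, HERPUD1 and DNAJB9 were higher in every treatment while ATF4 was lower and DDIT3 did not pass.

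Of the same list, 3 genes were picked out after their values were seen because they rose with every treatment. Other genes of the list also had higher means in every treatment. PPP1R15B, for example, averaged 52.8 CPM in DMSO and 67.1, 80.9 and 86.1 CPM with abemaciclib, fulvestrant and the combination. TRIB3, like ATF4, went the other way, from 80.0 CPM in DMSO to 63.6, 59.4 and 49.5 CPM in the same order. The 3 genes were CREB3L1, WFS1 and PPP1R15A. CREB3L1, a membrane-bound transcription factor of the ATF6 type, was measured at 19, 17.5 and 17.4 CPM in the DMSO libraries, 38.4, 40.2 and 42.7 CPM with abemaciclib, 59.1, 69.7 and 58.8 CPM with fulvestrant and 65.7, 53.8 and 58.6 CPM with the combination. Its groups did not overlap from DMSO to abemaciclib or from abemaciclib to the fulvestrant libraries, as for HERPUD1. The log2 fold change against DMSO was 1.17 ± 0.13 (adjusted p = 3.03e-08), 1.80 ± 0.13 (adjusted p = 1.97e-12) and 1.73 ± 0.12 (adjusted p = 3.06e-12) in turn. WFS1, an endoplasmic reticulum membrane protein mutated in Wolfram syndrome, gave 0.85, 1.06 and 1.01 (adjusted p = 1.08e-07, 9.19e-10 and 1.63e-09). PPP1R15A, also called GADD34, which directs dephosphorylation of the initiation factor that PERK phosphorylates, gave 1.06, 1.11 and 1.11 (adjusted p = 3.59e-05, 1.29e-05 and 9.58e-06).

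Beyond the 10 genes, 29 of 33 other chaperones and folding enzymes were tested. They were mixed in direction, with 8 higher and 7 lower with abemaciclib (median 0.10), 6 and 8 with fulvestrant (-0.05) and 5 and 9 with the combination (-0.14). The shares that passed, 51.7%, 48.3% and 48.3%, compare with the 41.2%, 51% and 55.2% of all genes. PDIA5, another disulphide isomerase, rose with abemaciclib (0.85 ± 0.14, adjusted p = 1.89e-05) and fell when fulvestrant was added to abemaciclib (-0.55 ± 0.14, adjusted p = 0.00242), with an interaction of -0.92 ± 0.20 (adjusted p = 0.00152), and so resembled PDIA4. DNAJC1, an HSP40 protein of the endoplasmic reticulum membrane, fell with abemaciclib (-0.86 ± 0.07, adjusted p = 1.94e-10), in contrast to DNAJB9, and was the only gene of the list to pass between the combination and fulvestrant (-0.37 ± 0.07, adjusted p = 0.00217). FKBP10, a prolyl isomerase known for its part in collagen folding, fell with fulvestrant (-1.52 ± 0.29, adjusted p = 8.6e-05) and the combination (-1.95 ± 0.30, adjusted p = 3.19e-06).

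In ER-associated degradation, the process in which HERPUD1 acts, 21 of 22 listed genes were tested, and 5 were higher and 2 lower with abemaciclib, 4 and 3 with fulvestrant, and 5 and 4 with the combination. These are 33.3%, 33.3% and 42.9% of the list, below the 41.2%, 51% and 55.2% of all genes. SYVN1, the ubiquitin ligase also called HRD1, rose with abemaciclib (0.61 ± 0.21, adjusted p = 0.0197). SEL1L, its partner, rose with the combination against both DMSO (0.85 ± 0.09, adjusted p = 1.11e-08) and abemaciclib (0.43 ± 0.09, adjusted p = 0.000445). SEL1L averaged 94.8 CPM in DMSO and 126.5, 144 and 171 CPM with abemaciclib, fulvestrant and the combination. RNF139 rose with abemaciclib (0.63 ± 0.10, adjusted p = 8.39e-06) and fulvestrant (0.66 ± 0.10, adjusted p = 2.31e-06). AUP1 fell with abemaciclib (-0.63 ± 0.10, adjusted p = 1.77e-05), fulvestrant (-1.28 ± 0.11, adjusted p = 1.21e-10) and the combination (-1.34 ± 0.11, adjusted p = 3.3e-11). UFD1 also fell in these comparisons (-0.73, -0.77 and -0.85, adjusted p = 2.89e-07, 6.65e-08 and 9.36e-09). The list as a whole thus did not follow HERPUD1, its medians being 0.14, 0.05 and -0.03. Some of its genes, such as SEL1L and RNF139, nonetheless had higher means than DMSO in every treatment.

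The 3 remaining lists cover earlier and later steps of secretion, and no share of them that passed was above the 41.2%, 51% and 55.2% of all genes with abemaciclib, fulvestrant and the combination. Of 24 genes for translocation and signal peptide processing, 5 rose and 1 fell with abemaciclib (25% passed), 3 rose and 5 fell with fulvestrant (33.3%), and 3 rose and 6 fell with the combination (37.5%). SSR4, a subunit of the translocon-associated complex, rose with abemaciclib (0.42 ± 0.09, adjusted p = 0.000677), with a negative interaction (-0.49 ± 0.13, adjusted p = 0.00797) as for XBP1. SRPRB, a subunit of the signal recognition particle receptor, fell with fulvestrant (-0.62 ± 0.10, adjusted p = 1.48e-05) and with the combination (-0.71 ± 0.10, adjusted p = 1.48e-06). Of 17 tested genes of N-glycosylation and glycoprotein folding, 2 rose and 5 fell with abemaciclib (41.2% passed), 1 rose and 4 fell with fulvestrant (29.4%), and 1 rose and 7 fell with the combination (47.1%). LMAN1, a lectin that carries glycoproteins out of the endoplasmic reticulum, fell with fulvestrant (-0.91 ± 0.08, adjusted p = 1.94e-10) and the combination (-0.90 ± 0.08, adjusted p = 1.55e-10), the direction of the lectin CANX. Its abemaciclib libraries, at 216, 211 and 215 CPM, also lay below the DMSO libraries, at 256, 269 and 253 CPM. Of 16 tested genes of the COPII coat and retrieval, 3 rose and none fell with abemaciclib (18.8% passed), 1 rose and 3 fell with fulvestrant (25%), and 2 rose and 3 fell with the combination (31.2%). SEC16A, which marks exit sites, rose with abemaciclib (0.65 ± 0.08, adjusted p = 4.93e-07). SEC16A also rose with fulvestrant (0.75 ± 0.08, adjusted p = 2.27e-08) and the combination (0.69 ± 0.08, adjusted p = 8.48e-08).

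**Figure D4:**
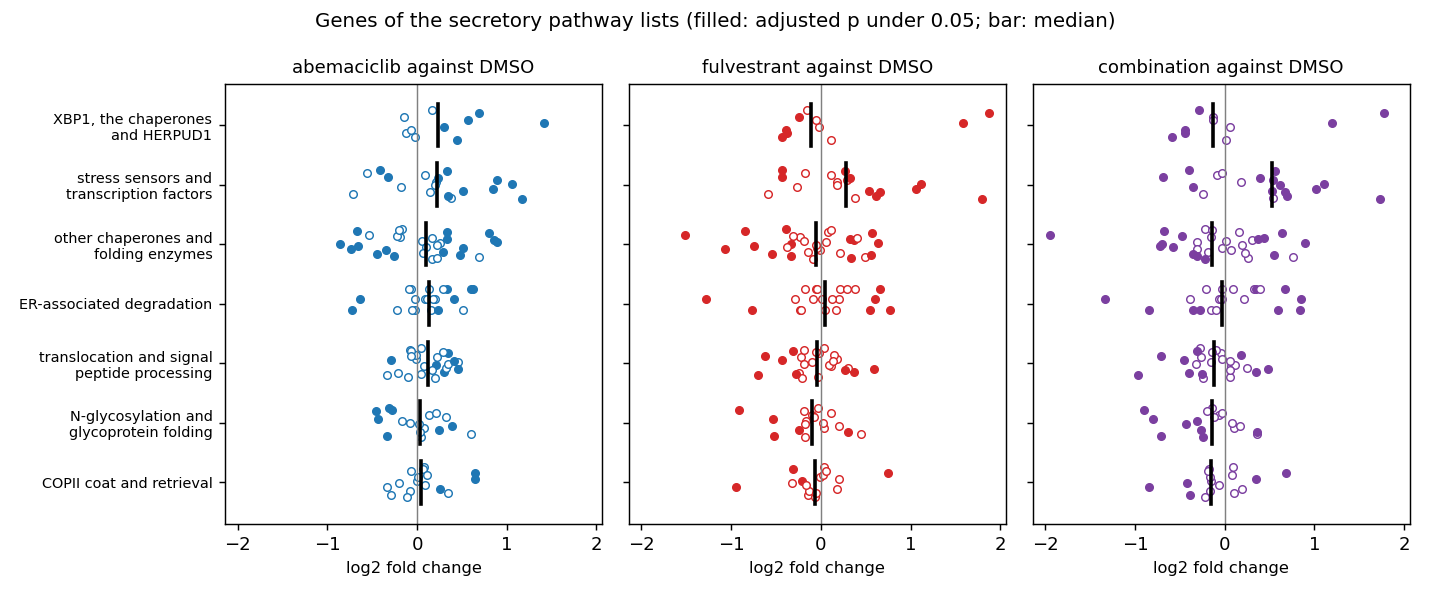
Log2 fold change against DMSO (horizontal axes) of each tested gene of the 10-gene set and of the 6 lists, 1 panel for each treatment; filled points passed an adjusted p of 0.05 and black bars are medians. In the upper row HERPUD1 and DNAJB9 are the right-most points in all 3 panels, and the medians of the 10 genes are 0.24, -0.11 and -0.13.

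The genes whose profile was most like that of XBP1 over the 12 libraries were CILP2 (Pearson r = 0.974 on log2 CPM), ABAT (0.970), S100A14 (0.969), ITGB5 (0.964) and SEC14L2 (0.957), among 6507 genes with a mean of at least 20 CPM. For HSPA5 they were PFKFB3 (0.978), WDR55 (0.965), FRMD8 (0.960), S100A14 (0.944) and IER3 (0.940). No other member was among the 5 nearest of either gene, and XBP1 and HSPA5 had r = 0.862 with each other. The 12 points share 4 treatments, so r mostly describes the relative spacing of the group levels. S100A14, which appears for both, averaged 1984, 3256, 1966 and 1979 CPM in DMSO, abemaciclib, fulvestrant and the combination, the pattern of XBP1 itself. Within the set, HSP90B1, CANX and PDIA6 had r of 0.841 to 0.894 with each other, DNAJB9 and HERPUD1 0.775, and HERPUD1 had -0.893 with CANX and -0.402 with XBP1.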

How the data were processed

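RNA of 12 CAMA-1 libraries was sequenced from the 3′ end with a QuantSeq FWD kit. The authors trimmed and aligned reads to hg38 with STAR and counted them per gene with featureCounts 2.0.1 on a GENCODE annotation, and they deposited raw counts per gene symbol. Whether counting used the strand is not given in the sources used here. No molecular identifiers are named, so reads are not independent molecules. The table held 60656 rows, of which 44 had no name and 0 reads. Genes were filtered with filterByExpr by group (at least 10 counts, total at least 15), scaled by TMM and fitted with robust quasi-likelihood dispersions in edgeR 4.0.16 (R 4.3.3), with 4 group means over all 12 libraries. Tests were two-sided with Benjamini-Hochberg adjustment over 11803 genes (threshold 0.05), SE was derived from the F statistic, and 95% intervals used the t quantile of the fit. CPM is on TMM-scaled library sizes. With 3 libraries per group no comparison can give an exact permutation p below 0.1. Alternatives were DESeq2 1.42.0, other scalings and filters, a fit of the groups compared alone, a replicate block and leaving out each library. The script was checked on counts drawn for all libraries from the DMSO group means, with changes planted in the abemaciclib group.

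The members and lists were chosen with earlier results of these data known. The text names all 10 members, 5 stress genes whether or not they passed, 3 treatment checks, and the 5 genes most correlated with XBP1 and with HSPA5. Further genes of the stress list were picked after their values were seen. Per other list and comparison, the text names some of up to 2 genes in each direction with the largest change among those past the threshold, at 10 CPM or more and with separate libraries. Gene coordinates are GENCODE v44 on GRCh38 and promoters are RefSeq windows on GRCh38.p14, which matched 9 of the 10 members by symbol (not PDIA3). The lowest chi-square per degree of freedom between libraries of 1 group was 1.87, so no library was counted as a duplicate.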

Additional observations from a re-analysis of the deposited data

Results flagged for a closer look

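XBP1, PDIA4, DNAJB9 and HERPUD1 differed in their response to abemaciclib with and without fulvestrant by the test of the interaction itself (edgeR, adjusted p under 0.05). Of all genes tested, 21.1% passed that test. The interaction was -0.65 for XBP1 (adjusted p = 2.29e-05), -0.53 for PDIA4 (0.0252), -1.80 for DNAJB9 (1.09e-05) and -0.78 for HERPUD1 (6.93e-05), all on the log2 scale. Without fulvestrant replicate 3 the values were -0.65, -0.69, -1.94 and -0.85 in turn. The PDIA4 call was lost in 7 of 19 alternative fits (adjusted p = 0.0526 to 0.0628). Those of XBP1, DNAJB9 and HERPUD1 held in all 19.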

How the results depend on the processing

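Over 7 comparisons and all alternatives, 1332 of 1390 values for the 10 genes kept their direction and their side of the threshold, 23 lost a call, 13 gained one and 22 changed sign, none of these past the threshold. Leaving out each library in turn gave 5 to 6 genes passing for abemaciclib against DMSO, 5 to 7 for fulvestrant, 6 for the combination, 7 to 8 for the combination against abemaciclib, 0 against fulvestrant, 6 to 8 for fulvestrant against abemaciclib and 3 to 6 for the interaction. Requiring at least a 1.5-fold change left 2, 2, 3, 2, 0, 2 and 3 in the same order. The shares of all genes under that rule were 23.5%, 33.3%, 36.7%, 17.9%, 1.34%, 15% and 15.1%. Sign changes outside the leave-one-out fits were HSP90B1 with abemaciclib (0.00108 without a filter on low counts, 0.00404 with upper-quartile factors) and HSPA5 with fulvestrant (0.00119 with upper-quartile factors). With single libraries left out, HSP90B1 ran from -0.056 to 0.058 with abemaciclib, HSPA5 from -0.082 to 0.031 with fulvestrant and -0.0030 to 0.11 with the combination, PDIA4 from -0.061 to 0.11 with the combination, PDIA3 from -0.042 to 0.056 for the combination against abemaciclib, PDIA6, CANX and PDIA4 from -0.15 to 0.011, -0.15 to 0.0075 and -0.25 to 0.015 against fulvestrant, and PDIA6 and CANX from -0.086 to 0.099 and -0.025 to 0.13 for the interaction. The causes were not tested. For the combination against fulvestrant, 227 of 11803 genes passed, 91 of 9748 with at least 10 counts in every library, 125 of 11132 with only the groups compared, 146 of 12003 without combination replicate 3 and 588 of 12069 without fulvestrant replicate 3. Without TMM scaling the median interaction of all genes shifted by 0.11, the share of positive calls went from 44.9% to 61.5%, and the median of the 10 genes went from -0.26 to -0.15.

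Replicate numbers did not pair the libraries: deviations from the group means of same-numbered libraries correlated at -0.215 to 0.119 over 18 pairs, 2 of them over 0.1. With the replicate block, 5, 6, 6, 8, 0, 8 and 4 of the 10 genes passed, the counts without it. DNAJB9, at 24 to 102 counts per library, had SEs of 0.17 to 0.26, the widest of the 10 genes.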
